A study of Mus musculus with 8 samples.

Results

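Catalase, glutathione peroxidase 1, the superoxide dismutases Sod1 and Sod2 and the peroxiredoxins Prdx1 and Prdx2 are the antioxidant enzymes described here, measured in mouse whole blood after cobalt chloride (CoCl2) and in controls. They are 6 genes measured by 9 probe sets, out of 45101 probe sets on the array (Affymetrix Mouse430 2.0). They were chosen by a given list of probe set IDs that gives Cat, Gpx1, Prdx1 and Prdx2 1 probe set each, Sod2 2 and Sod1 3. The pairing of IDs with genes comes from that list and could not be checked against the deposited files, which pair no probe set with a gene.

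The study compared 4 arrays of CoCl2-treated mice with 4 arrays of controls, each made from RNA of 100 µl of blood from the vena cava. CoCl2, used as a chemical mimic of hypoxia because cobalt stabilises hypoxia-inducible factors, was supplied daily at 200 ng per 100 ml over 15 days at room conditions. The treatment text also puts the controls at room conditions, but the sample titles call them chamber controls. Strain, sex and age do not appear in the labels. Nothing says that each array is a separate animal, and p-values then describe only how much these arrays vary, which may be technical.

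Superoxide dismutases turn superoxide into hydrogen peroxide, Sod1 in the cytosol with copper and zinc and Sod2 in the mitochondrial matrix with manganese. Catalase, the selenoenzyme Gpx1 (which spends glutathione) and the thioredoxin-dependent peroxiredoxins then remove the peroxide. In mammals, catalase, Gpx1 and Prdx2 are abundant proteins of red blood cells, which protect haemoglobin from oxidation, and Sod2 is known as a gene that inflammatory signals induce in leukocytes. Whole blood holds reticulocytes, leukocytes and platelets together, and on these arrays fewer cells of a type and less RNA per cell cannot be told apart.

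The stretches upstream of Prdx1, Prdx2, Sod1 and Sod2 are shown because the values of Prdx2 are set against those of its paralogue Prdx1, and those of Sod2 against those of Sod1, which does the same reaction but belongs to another protein family. Each is the 250 bases before the annotated start site of the gene, from RefSeq on GRCm38.p6, 5′ to 3′ on the gene's strand. Capitals mark matches, on either strand, to the antioxidant response element core TGACNNNGC that Nrf2 binds, to ACGTG and to the TATA box TATAAA. No marked matches overlap. ACGTG is a form of the hypoxia response element core, and its other form, GCGTG, was not searched for. The Prdx1 stretch is chr4:116685349-116685598 (+), that of Prdx2 chr8:84969372-84969621 (+), that of Sod1 chr16:90220512-90220761 (+) and that of Sod2 chr17:13007589-13007838 (+).
Prdx1: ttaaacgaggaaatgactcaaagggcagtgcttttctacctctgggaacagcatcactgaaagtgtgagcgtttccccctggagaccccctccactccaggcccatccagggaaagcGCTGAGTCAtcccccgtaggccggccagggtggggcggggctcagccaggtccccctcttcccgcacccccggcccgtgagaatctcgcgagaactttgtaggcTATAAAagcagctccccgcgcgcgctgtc
Prdx2: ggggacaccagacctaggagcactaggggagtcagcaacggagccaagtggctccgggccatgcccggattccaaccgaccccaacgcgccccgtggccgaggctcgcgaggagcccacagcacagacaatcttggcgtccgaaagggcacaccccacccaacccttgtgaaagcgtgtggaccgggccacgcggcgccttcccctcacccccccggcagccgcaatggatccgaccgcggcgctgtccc
Sod1: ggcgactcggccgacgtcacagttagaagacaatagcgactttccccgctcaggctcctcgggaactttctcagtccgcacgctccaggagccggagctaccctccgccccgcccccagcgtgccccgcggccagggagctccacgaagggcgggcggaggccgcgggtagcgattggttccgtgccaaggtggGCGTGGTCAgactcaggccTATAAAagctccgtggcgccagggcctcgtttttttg
Sod2: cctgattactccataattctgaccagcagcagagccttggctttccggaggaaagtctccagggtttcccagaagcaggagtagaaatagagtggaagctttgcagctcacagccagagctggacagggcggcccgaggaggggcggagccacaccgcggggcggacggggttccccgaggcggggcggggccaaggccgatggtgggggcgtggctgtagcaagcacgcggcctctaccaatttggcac

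TGACNNNGC was found upstream of Prdx1 and of Sod1, as TGACTCAGC 133 to 125 bases and as TGACCACGC 56 to 48 bases before the start site, both on the strand opposite to the gene. Of 32851 RefSeq promoter stretches of the same length, 10.2% hold it. TATAAA was found in these same stretches, 29 to 24 bases before the start site of Prdx1 and 37 to 32 bases before that of Sod1, against 12.4% of all stretches. ACGTG was found upstream of Gpx1 alone among the 6 genes, 183 to 179 bases before the start site on the gene's strand, against 16.6% of all stretches. The Cat and Prdx2 stretches, like that of Sod2, held none of TGACNNNGC, TATAAA and ACGTG. That says only that these letters are not in these windows. GCGTG does stand in the printed Prdx2, Sod1 and Sod2 stretches, but its share over all stretches was not counted.

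Over all the arrays, median log2 expression lay between 2.79 and 2.80 with CoCl2 and between 2.84 and 2.89 in controls. Levels are on the log2 scale of GCRMA values, 1 value per probe set and array, and levels of different probe sets are not comparable, since probes differ in how well they bind. The median log2 difference (CoCl2 minus control) over 22519 tested probe sets was 0.19. RNAs of the bacterial genes bioB and bioC, added at hybridisation and not from mice, were lower on CoCl2 arrays by -1.82 (11.34 ± 0.13 against 13.16 ± 0.22, SD, n = 4 each). The labels name no batch, but the ID numbers in the titles run in different ranges for CoCl2 and control samples. Batch and treatment therefore cannot be told apart.

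Of the 9 probe sets, 5 were called as higher with CoCl2, none as lower, and 4 were not called. Of these 4, 1 lay below the filter on low signal and was not tested. The 5 that rose stand for 4 genes, Sod2, Prdx2, Cat and Gpx1. A probe set was called when its limma p, adjusted by Benjamini-Hochberg over all 22519 tested probe sets, was under 0.05. By that rule 45.1% of all tested probe sets were called, 28.6% as higher and 16.5% as lower. The median log2 difference was 0.77 over the 8 tested members and 0.19 over all tested probe sets.

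Sod2, the mitochondrial dismutase, had the largest differences of the 9 probe sets. Log2 expression at 1448610_a_at was 8.38, 8.86, 8.58 and 9.23 on CoCl2 arrays 1 to 4 and 6.12, 6.71, 6.83 and 7.14 on control arrays 1 to 4. The lowest CoCl2 array stood 1.24 above the highest control array, the widest gap among the members. The log2 difference was 2.06 (SE 0.26, limma adjusted p = 0.000445), a 4.17-fold rise with a 95% confidence interval of 2.79 to 6.22. Of the tested probe sets, 98.5% had a difference at or below that value.

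The other Sod2 probe set, 1417193_at, read 6.79, 7.40, 7.17 and 7.62 with CoCl2 and 4.81, 5.44, 5.11 and 6.18 in controls. Control array 4 was the highest of its group, and the groups did not overlap. It rose 3.63-fold (limma adjusted p = 0.00154), with a log2 difference of 1.86 and an SE of 0.30. The gap between the Sod2 probe sets within an array averaged 1.51 ± 0.10 on CoCl2 arrays and 1.32 ± 0.31 on control arrays (SD, n = 4 each). These gaps overlapped, and they differed by 0.20, with an exact interval of -0.31 to 0.63 and an exact permutation p of 0.257, two-sided (adjusted 0.257). Exact intervals here hold the shifts that the permutation test does not reject at its smallest p, which is 97.1% coverage with 4 arrays against 4.

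Limma's treat test asks for a change beyond 1.5-fold, and both Sod2 probe sets passed it (adjusted p = 0.00334 for 1448610_a_at and 0.0139 for 1417193_at). It called no other member, and of all tested probe sets 13.7%, or 7.26% as higher.

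**Figure D1:**
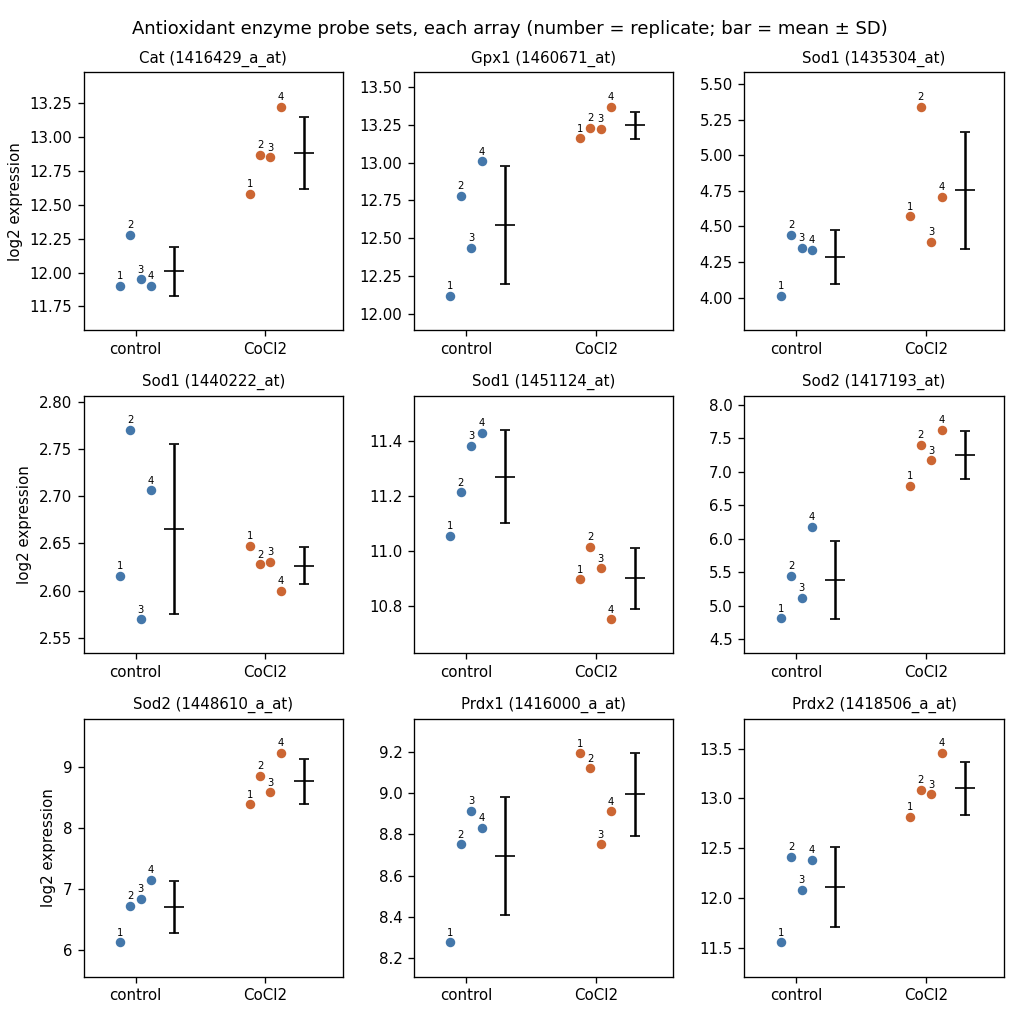
Log2 expression (y axis, a separate range in each panel) of the 9 probe sets on each control (blue) and CoCl2 (orange) array. Points are arrays numbered by replicate, and bars give the group mean ± SD with n = 4. The groups stand fully apart for Cat, Gpx1, both Sod2 probe sets, Prdx2 and, in the opposite direction, Sod1 1451124_at, while Prdx1 and the other Sod1 probe sets overlap.

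Sod1, the copper and zinc enzyme, was called at none of its 3 probe sets, 1 of which was not tested. Log2 expression at 1451124_at, the brightest of them, was 10.90, 11.01, 10.94 and 10.75 with CoCl2 and 11.06, 11.21, 11.38 and 11.43 in controls. All CoCl2 arrays lay below all control arrays, with 0.04 between the nearest. The log2 difference was -0.37 (SE 0.14, 95% confidence interval -0.68 to -0.06, limma adjusted p = 0.0529). This value sits at the threshold. It passed in limma with no filter on low signal (adjusted p = 0.0403), after quantile normalization (-0.48, adjusted p = 0.0190), after median centring (-0.51, adjusted p = 0.0190), with a trended and robust prior (adjusted p = 0.0312) and without control replicate 1 (-0.44, adjusted p = 0.0387). In 13 of 19 alternatives it still did not pass. Among these were limma with replicate number as a block (adjusted p = 0.118), with a stricter filter on low signal (adjusted p = 0.0754) and with array weights (adjusted p = 0.0580). With 1 array left out at a time, the limma adjusted p reached 0.108. The log2 difference turned to 1.45 with arrays centred on bioB and bioC.

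The Sod1 probe set 1435304_at gave 4.57, 5.34, 4.39 and 4.71 with CoCl2 and 4.01, 4.44, 4.35 and 4.34 in controls. CoCl2 array 2 stood above the rest, and array 3 fell within the range of the controls. The log2 difference at this probe set was 0.47 (SE 0.22, 95% confidence interval -0.02 to 0.95, limma adjusted p = 0.103), and 0.27 without CoCl2 replicate 2. The third, 1440222_at, averaged 2.63 ± 0.02 on CoCl2 arrays and 2.67 ± 0.09 on control arrays (SD, n = 4 each), and the groups overlapped. Its mean of 2.65 over all arrays lay below the filter of 2.90 and near the low end of the scale, so it was not tested. In a fit with no filter its log2 difference was -0.04 (95% confidence interval -0.15 to 0.07, limma adjusted p = 0.558). That fit called 17.7% of 45037 probe sets.

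The measured differences of the brighter Sod1 probe sets had opposite signs. Pair differences were tested within arrays, where a shift common to an array's probe sets cancels. Probe set 1435304_at lay nearer to 1451124_at with CoCl2, by 0.84 on the log2 scale (exact interval 0.23 to 1.42) and without overlap. The two-sided exact permutation p was 0.0286, the smallest that 4 against 4 allows, and 0.0571 after adjustment over 6 pairs. Pairs with 1440222_at, which lay below the filter, mostly restate the change of the other probe set and say nothing more of Sod1. They were 0.33 for 1440222_at minus 1451124_at (exact interval 0.05 to 0.66, exact permutation p = 0.0286, adjusted 0.0571) and 0.51 for 1435304_at minus 1440222_at (exact interval -0.02 to 1.32, exact permutation p = 0.0571, adjusted 0.0686). None of the 6 pairs passed 0.05 after adjustment.

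Between the dismutase genes, the brightest probe set of each was compared. Sod1 1435304_at, with a log2 difference of 0.47, was not set against Sod2. Sod2 1448610_a_at minus Sod1 1451124_at was -2.52, -2.16, -2.36 and -1.53 with CoCl2. In controls it was -4.94, -4.50, -4.55 and -4.28. The groups stood 1.77 apart at their nearest arrays. The shift of this Sod2 probe set against this Sod1 probe set was 2.43 on the log2 scale (exact interval 1.77 to 3.41, two-sided exact permutation p = 0.0286, adjusted 0.0571), and 2.26 after quantile normalization (adjusted exact permutation p = 0.0429). Since array-wide shifts cancel, this value does not depend on centring arrays on bioB and bioC.

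Among the peroxide-removing enzymes, Prdx2, the peroxiredoxin known from red blood cells, had the largest difference. Its log2 expression (1418506_a_at) was 12.81, 13.09, 13.04 and 13.46 with CoCl2 and 11.55, 12.41, 12.08 and 12.39 in controls. Control array 1 was the lowest of all, and the nearest arrays of the groups lay 0.40 apart. The log2 difference was 0.99 (SE 0.22, limma adjusted p = 0.00755), a 1.99-fold rise with a 95% confidence interval of 1.40 to 2.83. Without control replicate 1 it was 0.81 (limma adjusted p = 0.0139).

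Prdx1, a cytosolic peroxiredoxin related to Prdx2 and known as an Nrf2 target, did not pass. Log2 expression at 1416000_a_at was 9.19, 9.12, 8.75 and 8.91 with CoCl2 and 8.28, 8.75, 8.91 and 8.83 in controls. Apart from control array 1, which was low, the controls lay within the range of the CoCl2 arrays. The log2 difference was 0.30 (SE 0.18, 95% confidence interval -0.11 to 0.71, limma adjusted p = 0.194), and 0.16 without control replicate 1. After quantile normalization it was 0.02.

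Prdx2 minus Prdx1 was 3.62, 3.97, 4.29 and 4.55 on CoCl2 arrays and 3.28, 3.66, 3.17 and 3.55 on control arrays. CoCl2 array 1 fell just under control array 2, and the other CoCl2 arrays were above all controls. The peroxiredoxins differed from each other in their group difference by 0.69 on the log2 scale (exact interval -0.04 to 1.38, two-sided exact permutation p = 0.0571, adjusted 0.0686). After quantile normalization that value was 0.92 (adjusted exact permutation p = 0.0429).

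**Figure D2:**
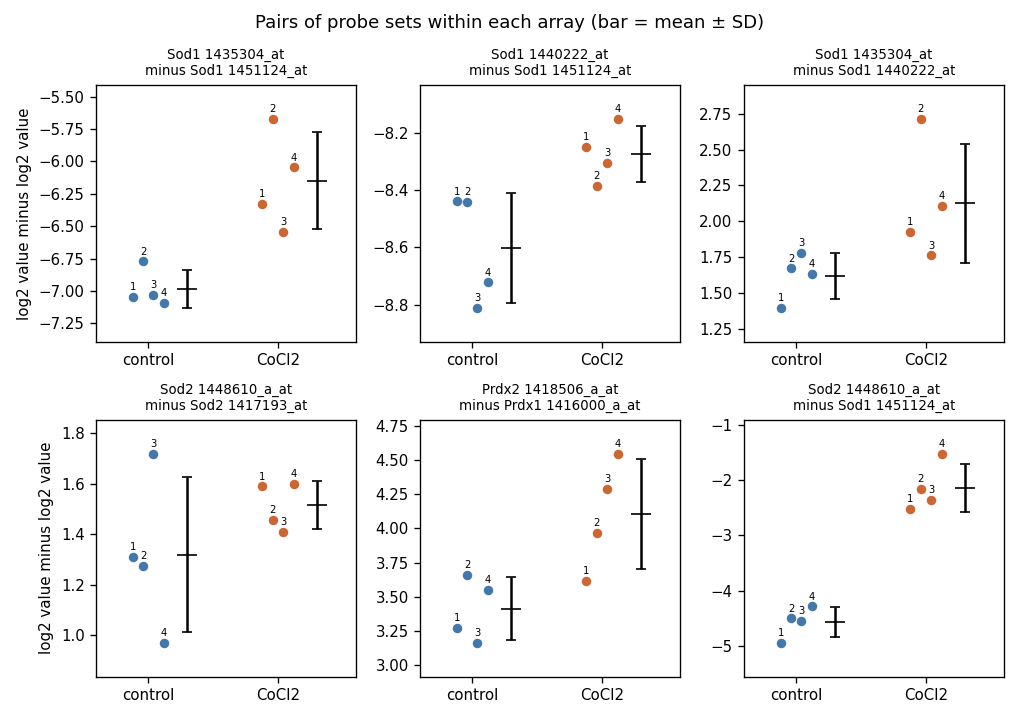
Difference of log2 values between 2 probe sets within each array (y axis) for the 6 pairs compared, on control (blue) and CoCl2 (orange) arrays, with group means ± SD (n = 4). Sod2 minus Sod1 stands 1.77 apart between the groups, whereas Prdx2 minus Prdx1 and the pair of Sod2 probe sets overlap.

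Catalase, which breaks hydrogen peroxide down without a reducing partner, rose too. Log2 expression of Cat (1416429_a_at) was 12.58, 12.87, 12.85 and 13.23 with CoCl2 and 11.90, 12.28, 11.95 and 11.90 in controls. Control array 2 stood apart from the other controls, which lay between 11.90 and 11.95, and still 0.30 below the lowest CoCl2 array. The log2 difference was 0.87 (SE 0.17, limma adjusted p = 0.00378), a 1.83-fold rise with a 95% confidence interval of 1.40 to 2.39.

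Gpx1 (1460671_at), the main glutathione peroxidase of red blood cells, read 13.16, 13.23, 13.23 and 13.37 with CoCl2 and 12.12, 12.78, 12.44 and 13.01 in controls. The CoCl2 arrays lay close together (SD 0.09) and the controls were spread (SD 0.39), with control array 4 only 0.15 below the lowest CoCl2 array. Its log2 difference of 0.66 (SE 0.20, 1.58-fold, 95% confidence interval 1.16 to 2.15, limma adjusted p = 0.0240) was the smallest of those called. The call was lost in limma with no filter (adjusted p = 0.0534) and with median-centred arrays (0.52, adjusted p = 0.0581). It was also lost without CoCl2 replicate 3, CoCl2 replicate 4 or control replicate 3 (adjusted p = 0.0527, 0.0530 and 0.0614).

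Cat, Prdx2 and Gpx1 gave strong signals, which says nothing of how much of each RNA there was. Of 255 tested probe sets with a mean signal of at least 12, these 3 included, 27.1% were called higher, and their median log2 difference was 0.07. These 3 enzymes differed by 0.66 to 0.99. Of all tested probe sets, 84.7% had a difference at or below that of Prdx2, 81.1% at or below that of Cat and 72.8% at or below that of Gpx1. The array's control probe sets for beta-actin, a cytoskeletal protein, averaged 12.32 ± 0.09 on CoCl2 arrays and 11.67 ± 0.08 on control arrays (SD, n = 4 each). That difference of 0.65 is about the size of that of Gpx1. Those for the glycolytic enzyme Gapdh differed by 0.03 and those labelled 18S by 0.08. Those labelled B1 and B2 were lower with CoCl2, at 11.39 ± 0.27 against 12.93 ± 0.25 in controls (SD, n = 4 each), a difference of -1.55. Another control is the transferrin receptor, the iron uptake receptor of erythroid precursors and young reticulocytes. Its middle probe set was at 3.37 ± 0.06 on CoCl2 arrays and 3.71 ± 0.15 on control arrays (SD, n = 4 each), a difference of -0.34. Its 3' probe set differed by -0.36, with overlap between the groups (2.89 to 3.55 with CoCl2, 3.20 to 3.88 in controls). Its 5' probe set, at 2.51 with CoCl2 and 2.58 in controls, differed by -0.07. These signals were all weak. The part of these controls in the results for the enzymes was not tested.

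The 6 probe sets without overlap between the groups were those of Cat, Gpx1, Prdx2, both of Sod2 and 1451124_at of Sod1. Of all tested probe sets, 45.5% had no overlap, 27.3% with CoCl2 higher, as for 5 members here, and 18.2% with CoCl2 lower, as for 1. The 5 that rose ranked the CoCl2 arrays alike, with array 1 lowest, then 3, 2 and 4, an order shown by 5.18% of tested probe sets. Of those 5, 2 are probe sets of Sod2. CoCl2 arrays 3 and 2 nearly tied in Gpx1 (both 13.23), Cat (12.85 and 12.87) and Prdx2 (13.04 and 13.09), so their order there rests on small gaps. In Sod1 1451124_at array 4 was the lowest of the group, and in Prdx1 array 1 was the highest. Among controls, array 1 was the lowest in 7 of the 8 tested members, Cat being the exception, and in 27.3% of all tested probe sets. Of those 7, some are probe sets of the same gene, 2 of Sod1 and 2 of Sod2.

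**Figure D3:**
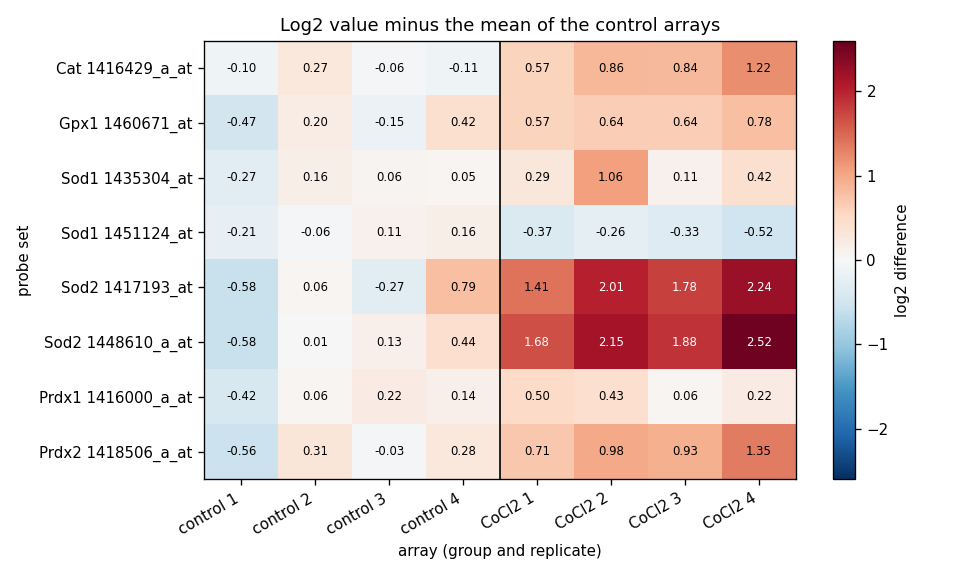
Log2 value of each array (columns, 4 control and 4 CoCl2 arrays) minus the mean of the control arrays, for the 8 tested probe sets (rows), with red above and blue below 0. Both Sod2 rows run from 1.41 to 2.52 on CoCl2 arrays, Cat, Gpx1 and Prdx2 from 0.57 to 1.35, and Sod1 1451124_at from -0.52 to -0.26.

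The scaling of the arrays sets the size of every difference and some directions. Relative to the median of all tested probe sets, the log2 differences were 1.87 for Sod2 1448610_a_at, 0.81 for Prdx2, 0.69 for Cat, 0.47 for Gpx1, 0.12 for Prdx1 and -0.55 for Sod1 1451124_at. Quantile normalization and median centring each left 22.6% of tested probe sets called higher. With arrays centred on bioB and bioC, the median of all tested probe sets moved to 2.00 and 91.0% of them were called higher. In that fit all 8 tested members were higher, from 1.45 for Sod1 1451124_at to 3.88 for Sod2 1448610_a_at, and Prdx1, at 2.12, was near the median.

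In the authors' deposited table, 8 of the 9 probe sets are listed, all but Sod1 1440222_at. The authors' deposited table gives log2 differences of 1.69 and 1.74 for Sod2 (1448610_a_at and 1417193_at), 0.82 for Prdx2, 0.69 for Cat and 0.57 for Gpx1. For Prdx1 the authors' deposited table has 0.30 with a q-value of 2.76%, and for Sod1 1451124_at -0.23 with a q-value of 7.14%. For Sod1 1435304_at the authors' deposited table has 1.08 with a q-value of 0.0230%. In the restored values this probe set had 0.47 and was not called (limma adjusted p = 0.103). Of the 8 listed, 7 have a q-value under 5% with a positive score, as do 47.6% of all 24878 probe sets in the authors' deposited table, where 69.1% are under 5% in either direction. Which values and arrays that table was made from is not stated in its header.

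**Figure D4:**
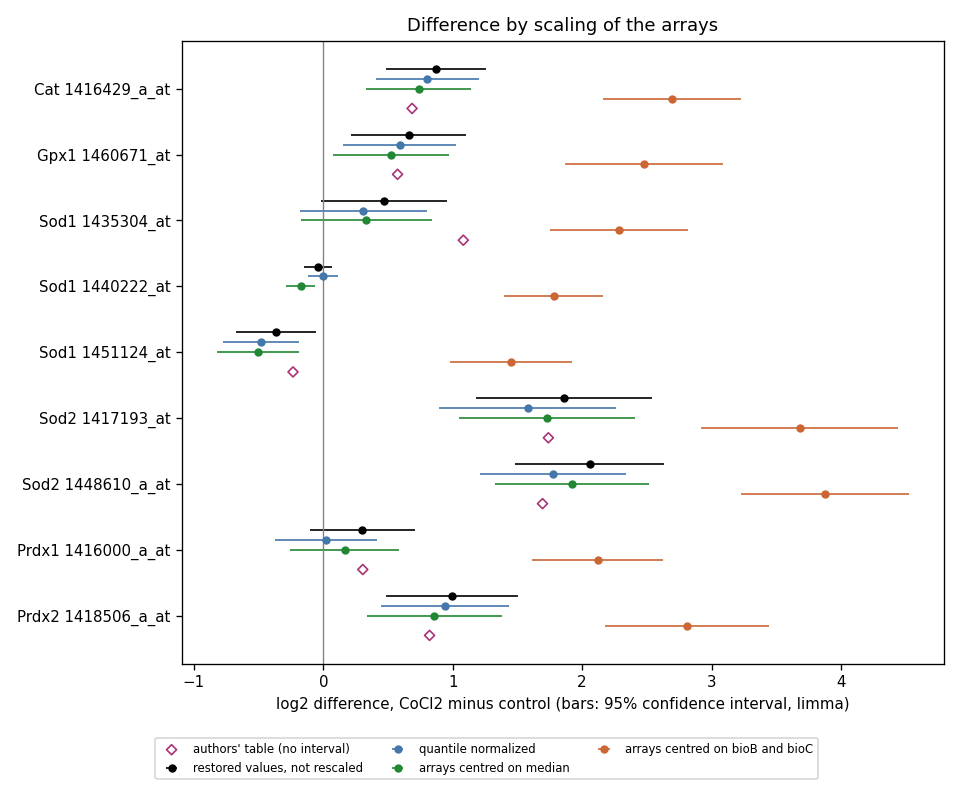
Log2 difference, CoCl2 minus control (x axis), of each probe set with its 95% confidence interval from limma under 4 scalings of the arrays, and the authors' deposited value without an interval. Sod2, Prdx2, Cat and Gpx1 lie above 0 in each, Sod1 1451124_at lies below 0 except when arrays are centred on bioB and bioC, where every probe set moves up.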

How the data were processed

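Each sample's blood RNA was amplified and labelled with biotin for an array of its own, per the labels' protocols. The submitters' processing notes name GCRMA and Partek. In the deposited value table the entries are a score without a fixed unit, since log2 values stand there without their decimal points. Points were restored from the digits, and 1524 of 360808 cells (0.422%) had several readings, of which the nearest to an unambiguous array of the probe set was taken. None of the 72 member cells was among them. On simulated damage, 99.9% of all cells and 84.6% of ambiguous ones came back within 0.005. That restored values (1.69 to 16.89) are log2 is inferred from their range and no header states it.

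The authors' deposited comparison comes from SAM, per the file headers, with a score, its numerator and denominator, a fold change and a q-value in percent. The numerator is read here as a log2 difference because it tracks the restored values, and no header states that. The denominator is read as an error and the fold change as a ratio.

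After 64 control probe sets were left out, the upper 50% by mean over all arrays (at least 2.90) was tested with limma 3.58.1 in R 4.3.3 (lmFit, eBayes, two-sided, Benjamini-Hochberg, threshold 0.05), which was tested on simulated arrays. Pairs of probe sets were compared by exact permutation in scipy 1.17.1. The number of arrays limits precision, with a median standard error of 0.21. The design had assumed log2 values as deposited. Same-numbered arrays did not deviate together (r from -0.04 to 0.02), so numbers were not taken as pairs. Members and lists were chosen with earlier results of these data known. The rule for named genes took all 9 probe sets. Other antioxidant genes and blood cell markers are not analysed here, because no probe set could be paired with them, and so the tissue was not checked by markers and the nearest profiles were not named.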

Additional observations from a re-analysis of the deposited data

Results flagged for a closer look

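Control replicate 2 stood apart in catalase (Cat, 1416429_a_at), at 12.28 on the log2 scale against 11.90 to 11.95 in the other control arrays. It was the single case among 30 groups of 4 values examined, and chance flags about 1 in 20. Without it the log2 difference of Cat was 0.96 (limma adjusted p = 0.00463).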

How the results depend on the processing

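Each tested probe set was computed under 19 alternatives. Both Sod2 probe sets stayed past the threshold in all of them, and Cat and Prdx2 in all but limma's treat test. Prdx1 and Sod1 1435304_at passed under bioB and bioC centring and in the authors' table alone. Centring on bioB and bioC turned Sod1 1451124_at to 1.45 and 1440222_at to 1.78, and median centring gave -0.18 for 1440222_at (limma adjusted p = 0.0200). Centring on bioB and bioC called 21019 probe sets and all 8 tested members. The treat test, stricter by construction, called 3083 and 2 members, a stricter filter tested fewer probe sets and called 6142, and the authors' table has 17184. Without 1 array at a time, 8006 to 10292 probe sets and 4 to 6 members were called. After quantile normalization, 4 pair differences passed (adjusted exact permutation p = 0.0429): 0.79 and 0.48 for Sod1 1435304_at and 1440222_at against 1451124_at, 0.92 for Prdx2 minus Prdx1 and 2.26 for Sod2 minus Sod1. For 3 of them the unadjusted p was 0.0286, the smallest possible, before and after. Their adjusted p fell because Prdx2 minus Prdx1 also reached it, and the pair with 1440222_at restates 1451124_at. With both pairs of 1440222_at left out, chosen after seeing the data, the adjusted exact permutation p was 0.0571 for Sod1 1435304_at minus 1451124_at and for Sod2 minus Sod1 and 0.0762 for Prdx2 minus Prdx1, and 0.0381 for each after quantile normalization. With the replicate block, limma called 9214 probe sets and 5 members, and it changed no member's call. Pair differences with that block keep their values, and 4 pairs allow no p under 0.125. Leaving out 1 array allows none under 0.0571. The pair values then ranged from 0.68 to 0.97 and 0.26 to 0.38 for the same Sod1 pairs, 0.31 to 0.63 for 1435304_at minus 1440222_at, 0.08 to 0.33 for the Sod2 probe sets, 0.54 to 0.85 for Prdx2 minus Prdx1 and 2.22 to 2.55 for Sod2 minus Sod1. The alternatives for gene lists were not run, and signals near the low end, as for Sod1 1440222_at, limit what can be seen.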
